A study of Rattus norvegicus with 84 samples.

Results

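Platelets and the megakaryocytes that shed them share a set of genes that few other cells use, and 10 of these were looked up in the EV transcriptomes of rats with stroke, Pf4, Ppbp, Itga2b, Itgb3, Gp1bb, Gp9, Gp6, Tubb1, Treml1, and Nrgn2. They were chosen by name as platelet and megakaryocyte markers, without a threshold on their values. Earlier results of these data were known when they and the gene lists used below were chosen. Of the 18782 annotated genes in the mRNA table, which has 26637 rows in all, 9 were members found by their symbols. Nrgn2 was not a row, and Nrgn (neurogranin) is described once in its place.

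EVs were isolated from the plasma and from the ipsilateral hemisphere of 21 wild-type male Sprague-Dawley rats in 7 groups of 3. A healthy group had no stroke, and its age was not stated separately. All other rats, aged 8 to 12 weeks at surgery, underwent a 90 min occlusion of the middle cerebral artery. They received an intra-arterial injection 3 days later, either of saline (control) or of 200000 human neural stem cells (hNSCs). These rats were sacrificed 4, 10, or 31 days poststroke. Every rat gave 1 mRNA library per tissue, so the 3 libraries of a group are 3 animals. The main group tests within a tissue estimated the spread between rats over all 7 groups. Permutation tests of correlations shuffled the 21 rats without regard to group. The hNSCs groups are thus stroke groups with cells added, and no healthy rat received cells.

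Megakaryocytes are large bone marrow cells that package mRNA, proteins, and granules into platelets, which have no nucleus but keep that RNA. In blood, platelets seal damaged vessels. They attach through the glycoprotein Ib-IX-V complex, sense collagen through glycoprotein VI, and aggregate through the integrin αIIbβ3, and on activation they release chemokines from their α-granules and shed EVs. Transcription of many of these genes in megakaryocytes is known to depend on factors of the GATA and ETS families. Platelets and their EVs also carry miRNAs, among which miR-223, miR-126, miR-191, and miR-199a are well known.

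Promoters are shown for the 4 members whose plasma levels followed Pf4 most closely among those with an entry in the RefSeq promoter table (build GRCr8), which held 7 of the 9 members. Each line gives the 250 bases before the annotated start, read 5′ to 3′ on the strand of the gene. Capitals mark letters of a GATA motif (AGATAA or AGATAG, and likewise TGATAA or TGATAG) or of an ETS motif (AGGAAG or CGGAAG), searched on both strands, where an ETS motif can run directly into a GATA motif.
Tubb1 (chr3:183665939-183666188, plus strand): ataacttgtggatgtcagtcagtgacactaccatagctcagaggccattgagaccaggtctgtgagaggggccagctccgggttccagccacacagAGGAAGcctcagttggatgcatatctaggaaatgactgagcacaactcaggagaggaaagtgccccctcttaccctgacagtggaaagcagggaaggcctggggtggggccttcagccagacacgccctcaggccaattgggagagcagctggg
Itga2b (chr10:87925834-87926083, minus strand): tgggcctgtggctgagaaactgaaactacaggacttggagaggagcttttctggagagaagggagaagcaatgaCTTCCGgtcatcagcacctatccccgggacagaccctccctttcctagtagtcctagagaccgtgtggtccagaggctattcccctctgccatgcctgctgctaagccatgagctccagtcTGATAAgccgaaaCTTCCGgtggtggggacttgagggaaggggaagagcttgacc
Treml1 (chr9:20139934-20140183, minus strand): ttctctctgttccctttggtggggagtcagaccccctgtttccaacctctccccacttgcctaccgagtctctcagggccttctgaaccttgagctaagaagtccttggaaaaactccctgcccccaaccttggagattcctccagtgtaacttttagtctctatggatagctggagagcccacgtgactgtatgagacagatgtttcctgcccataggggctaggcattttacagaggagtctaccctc
Gp6 (chr1:78508258-78508507, plus strand): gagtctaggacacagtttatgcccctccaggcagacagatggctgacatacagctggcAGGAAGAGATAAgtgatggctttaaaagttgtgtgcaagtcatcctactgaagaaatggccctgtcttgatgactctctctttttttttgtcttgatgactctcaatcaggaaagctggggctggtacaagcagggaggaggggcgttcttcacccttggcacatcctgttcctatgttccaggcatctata
The Itga2b window held 1 GATA and 2 ETS matches, the Gp6 window held 1 of each in direct succession, the Tubb1 window held 1 ETS match, and the Treml1 window held none of these letters. Over the 7 members with an entry, 3 windows held a GATA match and 5 an ETS match. Among all 33469 promoters of that length, 27.0% held a GATA match and 39.4% an ETS match. A match describes the letters and does not show a bound site.

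The mature forms of the miRNAs compared with Pf4 further on, those known from platelets, are given with bases 2 to 8, the seed, in capitals (RefSeq, GRCr8). No 2 of them share a seed.
miR-191a-5p: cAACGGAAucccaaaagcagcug
miR-126a-3p: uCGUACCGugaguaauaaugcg
miR-126a-5p: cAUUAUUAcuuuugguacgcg
miR-223-3p: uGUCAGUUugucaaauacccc
miR-199a-3p: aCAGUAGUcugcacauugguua

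The plasma mRNA libraries held 6357680 to 31028559 counts on annotated genes. The 9 member genes took between 0.0940% and 1.84% of these counts (median 0.215%), most of it from Pf4 alone, which took 0.0638% to 1.52%. Counts are reads without molecular identifiers, so low counts and bounds below cover counting error only. In what follows, CPM is the count of a gene per 1000000 counts on annotated genes past a filter on low counts, after TMM scaling, used to compare rats, and FPKM is the length-corrected value of the authors, used to compare genes. A lower value in EV RNA may reflect fewer EVs of one origin or less of the RNA per EV. In plasma it may also reflect fewer residual platelets, since the paper names platelet contamination as a concern for blood-derived EVs. These cannot be told apart here, and contamination was not tested.

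Pf4 was among the most abundant mRNAs of plasma-derived EVs, and the other members were spread over a wide range below it. The 2 chemokines stood far apart. Pf4 encodes platelet factor 4, a chemokine of the α-granule that binds heparin, and reached a mean FPKM of 3115 ± 3401 (SD, n = 21), rank 5 of all annotated genes. Ppbp encodes pro-platelet basic protein, the precursor of another α-granule chemokine that attracts neutrophils, and had a mean FPKM of 44.0 ± 45.8 (rank 467). Tubb1, the β-tubulin that forms the marginal band of platelets, came next after Pf4 with 56.9 ± 60.9 (rank 375).

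The surface proteins were lower. Treml1, a receptor that platelets store in α-granules, had a mean FPKM of 29.9 ± 27.5. The 2 members that belong to the receptor for von Willebrand factor were alike in level, Gp9 at 23.6 ± 21.9 and Gp1bb at 21.1 ± 26.6. The integrin subunit Itgb3, also made by cells other than platelets, was at 20.8 ± 31.8, and its partner Itga2b, which is largely confined to the megakaryocyte lineage, was at 6.32 ± 6.40. Gp6, the collagen receptor, was lowest with 3.74 ± 4.81 and rank 4148. The SD was close to or above the mean for all 9 genes. It measures the spread between rats and not the difference between genes, which were read in the same libraries. The order of neighbors was not tested.

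Rats differed widely in these genes, also within a group. Pf4 ranged from 585 to 18864 CPM over the 21 rats, a 32.2-fold range, and the range was 19.9-fold for Tubb1, 34.1-fold for Itga2b, 35.6-fold for Treml1, 48.2-fold for Gp6, 50.7-fold for Ppbp, and 124-fold for Itgb3. Of the variance of Pf4 in log2(CPM + 1), 75.4% lay within groups, beside a median of 68.7% over the 14720 genes that passed the filter on low counts and 70% of the degrees of freedom. All 9 members passed that filter in plasma, and their shares within groups ran from 64.7% for Gp1bb to 82.4% for Ppbp. The members thus lay on both sides of these references.

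In the healthy rats, Pf4 was at 1121, 13466, and 729 CPM in rats 1 to 3. In the control group it was at 935, 585, and 3688 CPM after 4 days, at 18864, 1394, and 4283 CPM after 10 days, and at 1205, 1609, and 976 CPM after 31 days. In the hNSCs group it was at 3895, 2261, and 14394 CPM after 4 days, at 5053, 1181, and 3543 CPM after 10 days, and at 789, 1002, and 11718 CPM after 31 days. Thus 4 rats stood at 11718 CPM or more, one each in the healthy, control 10 d, hNSCs 4 d, and hNSCs 31 d groups, and no value lay between 5053 and 11718 CPM. The groups overlapped for Pf4 in each of the 8 comparisons made below.

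**Figure D1:**
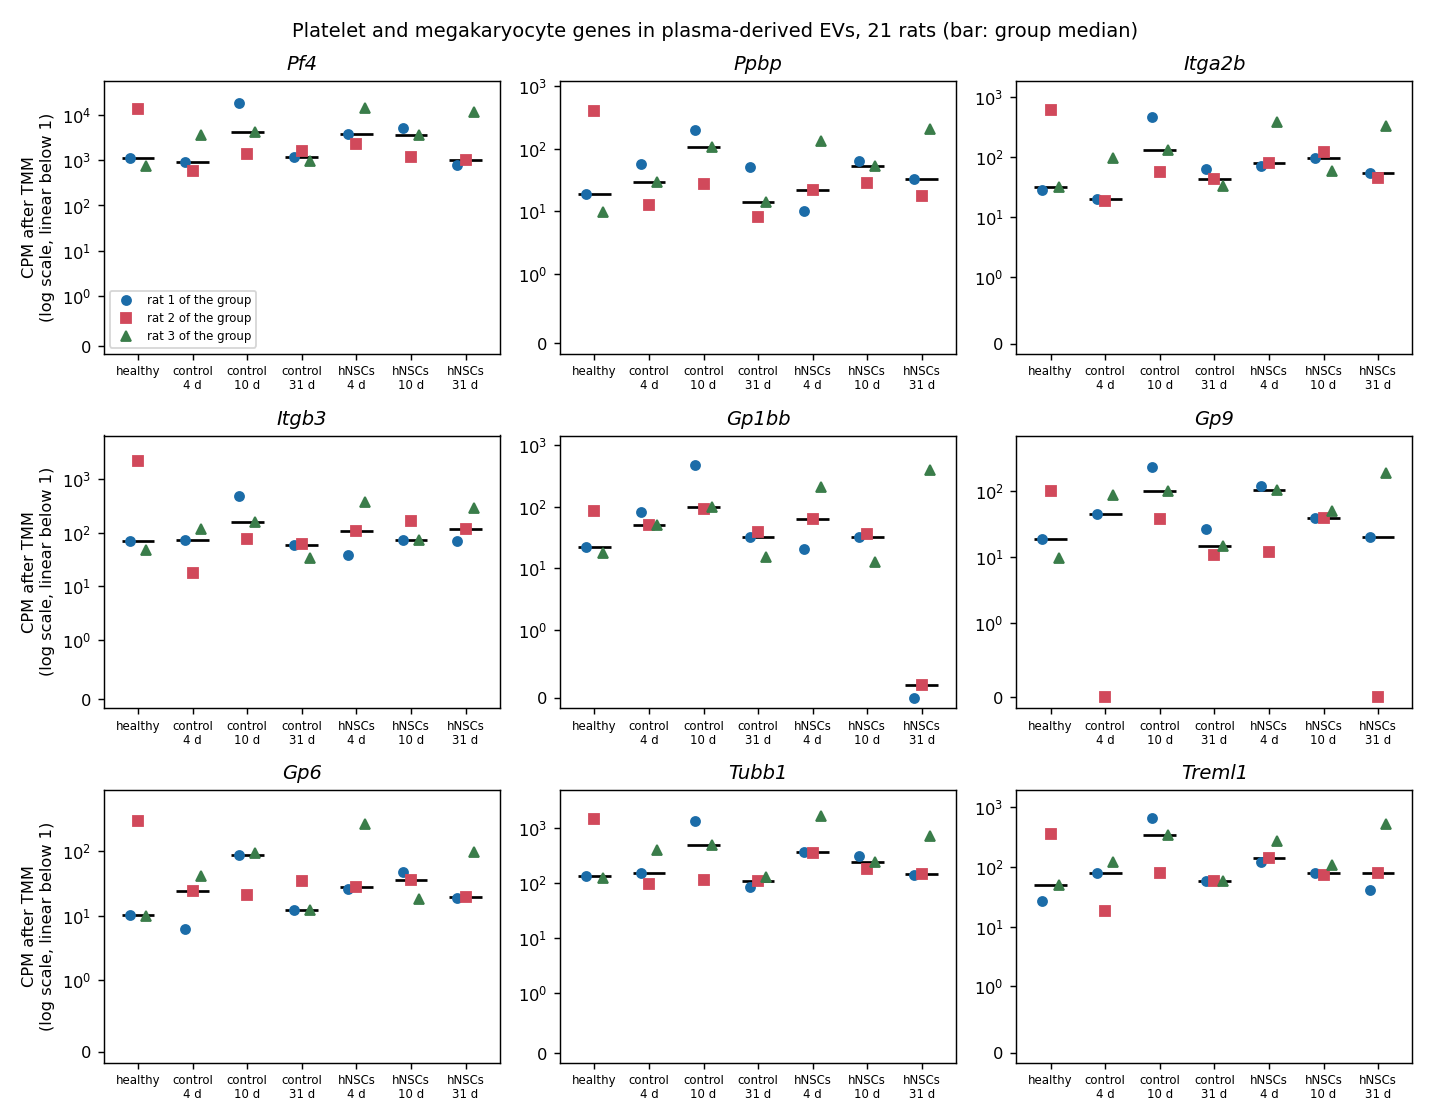
Levels of the 9 member genes in the plasma-derived EVs of each of the 21 rats, in CPM after TMM scaling on a log axis that is linear below 1, with 1 symbol per rat number within its group and a bar at the group median. Healthy rat 2, rat 1 of the control group at 10 days, and rat 3 of the hNSCs group at 4 and at 31 days stand above the other rats of their groups for nearly every gene.

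The same rats were high for the other members. Healthy rat 2 had the highest value of its group for 9 of 9 members, and so did rat 3 of the hNSCs group at 31 days. Rat 1 of the control group at 10 days and rat 3 of the hNSCs group at 4 days were highest for 8 of 9 members each, and rat 3 of the control group at 4 days for 7. In the control group at 31 days and the hNSCs group at 10 days no rat was highest for more than 4.

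Healthy rat 2 stood out most for Itgb3. This gene was at 2185 CPM in this rat and at 70.0 and 47.8 CPM in the other healthy rats, and Itga2b was at 622 CPM beside 31.3 and 28.3 CPM. Relative to 100 Pf4 counts, this rat had 16.2 Itgb3 counts, the highest of the 21 libraries, whose median was 3.88. Tubb1 kept the closest ratio to Pf4, with 6.18 to 17.7 counts per 100.

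Both members that belong to the glycoprotein Ib-IX complex were at 0 in single libraries. Gp1bb was at 394 CPM in rat 3 of the hNSCs group at 31 days, while rat 1 of that group had no count and rat 2 only 5 counts, or 0.186 CPM. Gp9 had no count in rat 2 of the same group and in rat 2 of the control group at 4 days, and was at 185 and 20.2 CPM in the other rats of the former group. Each of these 3 libraries held counts on the other 8 members. In the RefSeq annotation of GRCr8, Gp1bb overlaps Septin5, listed as Sept5 in the deposited table, and the strand setting of the counting was not stated, so counts of Gp1bb are uncertain. No other member overlapped a gene.

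Across the 21 plasma libraries the members varied together. Over the 36 pairs of members, Pearson r of log2(CPM + 1) ranged from 0.44 to 0.94 with a median of 0.77, and 35 of 36 pairs lay above 0.5, beside 3.29% of all pairs of genes past the filter, whose median r was 0.04. With the group means removed the median over the pairs was 0.80, and Spearman's rho had a median of 0.73. These values describe 21 libraries that share depth and scaling, and the members were chosen together, so no test is attached. Pf4 followed Tubb1 most closely (r = 0.94), then Itga2b (0.91), Treml1 (0.89), Gp6 (0.85), Ppbp (0.78), Itgb3 (0.77), Gp9 (0.75), and Gp1bb (0.63). In the 17 rats below the gap in Pf4, r was lower, with a median of 0.65 over the 8 members and a range from 0.30 for Gp1bb to 0.85 for Tubb1. That split was made after seeing the data.

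The next question was whether stroke altered these genes in plasma-derived EVs. A call required more than a 1.5-fold change and an adjusted p under 0.05 (Benjamini-Hochberg, over all genes tested). Against the healthy group, 0 of 9 members were called by edgeR in the control group at 4 days, where 0.0679% of all genes were called, and 0 of 9 at 10 and at 31 days, where 0% of genes were called each time. The 3 comparisons share the healthy rats. At an unadjusted p under 0.05 there were 2 members at 4 days, 0 at 10 days, and 2 at 31 days, beside 5.86%, 5.60%, and 4.75% of all genes. Limma called 0 members in each. DESeq2 called 1 at 4 days, 0 at 10 days, and 1 at 31 days, Itgb3 both times, where it called 6.47%, 8.66%, and 4.70% of all genes.

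At 4 days 7 of 9 members lay below the healthy group and at 31 days 9 of 9, with median log2 fold changes of −1.56 and −2.29 beside −0.12 and −0.09 over all genes. At 10 days 5 lay above and 4 below. For Pf4 the log2 fold changes were −1.56 (SE 1.16, adjusted p = 0.928), 0.68 (SE 1.13, adjusted p = 1.00), and −2.02 (SE 1.17, adjusted p = 0.844). The lowest values belonged to Itgb3, with −3.46 at 4 days (adjusted p = 0.715) and −3.90 at 31 days (adjusted p = 0.844).

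These directions rested on healthy rat 2. Without it, 7 of 9 members changed direction at 4 days, so that all 9 lay above the healthy group with a median of 0.95, and 7 of 9 changed direction at 31 days with a median of 0.50. At 10 days all 9 then lay above it, with a median of 2.96. Without rat 1 of the control group at 10 days the median there was −0.89. Groups did not overlap for 1 of 9 members at 10 days, Gp1bb, with 91.9 to 483 CPM against at most 85.0 CPM in the healthy rats, and for none at 4 and 31 days. Of all genes, 12.5%, 12.2%, and 12.2% did not overlap at 4, 10, and 31 days, in either direction.

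Between the days of the control group, members lay highest at 10 days. From 4 to 10 days 9 of 9 lay higher, with a median log2 fold change of 1.78, and from 10 to 31 days 9 of 9 lay lower, with a median of −2.60. These comparisons share the rats at 10 days. By edgeR 0 of 9 were called in either, beside 0.387% of all genes from 4 to 10 days and 0% from 10 to 31 days. At an unadjusted p under 0.05 there were 1 and 3 members, beside 7.5% and 6.30% of all genes. Limma called 0 in both, and so did DESeq2, which called 10.7% and 9.51% of all genes. Pf4 differed by 2.24 (SE 1.18, adjusted p = 0.591) and −2.70 (SE 1.20, adjusted p = 0.640), and Treml1 by 2.27 and −2.61.

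The step from 10 to 31 days was compared rat by rat. Treml1 was at 652, 79.7, and 339 CPM in the control rats at 10 days, and at 58.0, 58.3, and 58.8 CPM at 31 days. Itgb3 was at 483, 74.8, and 161 CPM against 58.0, 62.4, and 33.3 CPM. The 2 groups did not overlap for these genes and for Gp1bb and Gp9, 4 of 9 members, all lower at 31 days, where 10.2% of all genes did not overlap in either direction and 4.85% were lower. From 4 to 10 days 1 of 9 members did not overlap, Gp1bb, beside 10.8% of all genes. Leaving out rat 1 of the control group at 10 days moved the median to 0.75 from 4 to 10 days and to −1.52 from 10 to 31 days, and no member changed direction.

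**Figure D2:**
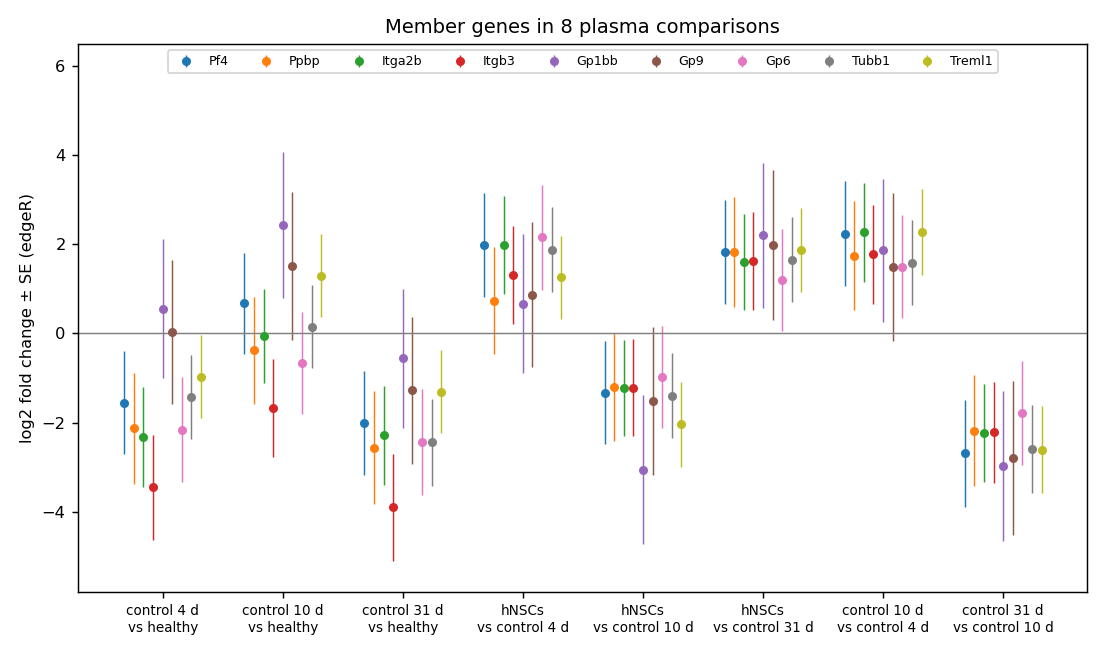
Log2 fold changes of the 9 members in 8 comparisons of plasma-derived EVs, as estimated by edgeR, with bars of 1 standard error and 1 color per gene. Members lie on one side of 0 together in the comparisons of control 31 d with healthy, of hNSCs with control and of successive control days, while no member passed the threshold in any of the 8.

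The transplanted rats were compared with the control rats of the same day to ask how hNSCs altered EV content. Members lay above the control group at 4 days (9 of 9, median log2 fold change 1.32) and at 31 days (9 of 9, median 1.82), and below it at 10 days (9 of 9, median −1.33). By edgeR 0 of 9 were called at each day, where 0.00679%, 0%, and 0% of all genes were called at 4, 10, and 31 days. At an unadjusted p under 0.05 there was 1 member, Treml1 at 10 days with a log2 fold change of −2.04, and 0 at 4 and 31 days, beside 3.94%, 4.06%, and 8.57% of all genes at 4, 10, and 31 days. Limma called 0 at each day, and so did DESeq2, which called 6.23%, 8.15%, and 11.9% of all genes. For Pf4 the log2 fold changes were 1.98 (SE 1.17, adjusted p = 0.815), −1.33 (SE 1.15, adjusted p = 1), and 1.83 (SE 1.17, adjusted p = 0.597).

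Rats of both arms overlapped for most members. At 4 days 0 of 9 members were separate, beside 7.70% of all genes. At 10 days only Gp1bb was, with 12.9 to 35.7 CPM in the hNSCs group and 91.9 to 483 CPM in the control group, beside 8.58% of all genes. At 31 days Itgb3 and Tubb1 were, both higher with hNSCs, beside 11.2% of all genes. Itgb3 was at 68.9, 116, and 288 CPM against 58.0, 62.4, and 33.3 CPM in the control rats, and Tubb1 was at 140 to 724 CPM against 83.4 to 131 CPM.

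At 31 days the difference rested on rat 3 of the hNSCs group. Without it, 4 of 9 members changed direction and the median was 0.05. Gp1bb, with 2.21 in the full comparison, was then called in the opposite direction at −8.11, since the remaining libraries held 0 and 5 counts. Without rat 1 of the control group at 10 days, the median at that day was −0.47 and 1 member, Pf4, changed direction. At 4 days, leaving out any 1 rat gave medians between 0.59 and 1.92 and turned at most 2 members.

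The change of the hNSCs effect between days was tested as an interaction. By edgeR 0 of 9 members were called for 10 against 4 days, 31 against 4 days, and 31 against 10 days, where 0.00679%, 0.00679%, and 0% of all genes were called, and 3, 0, and 3 members had an unadjusted p under 0.05, beside 5.69%, 9.96%, and 12.1% of all genes. Limma called 0 in each, and DESeq2 called 0, 0, and 1, beside 8.19%, 12.5%, and 14.4% of all genes. The member called by DESeq2 was Treml1, whose interaction of 3.92 for 31 against 10 days also had the lowest adjusted p of the members by edgeR, at 0.336. For 10 against 4 days the interaction lay below 0 for 9 of 9 members, with a median of −3.22 beside 0.28 over all genes. For 31 against 10 days it lay above 0 for 9 of 9, with a median of 3.05 beside −0.48. No member passed the adjusted threshold by edgeR. Both interactions contain the hNSCs difference at 10 days with opposite sign, and the members varied together, so these directions are not independent. Leaving out any 1 rat gave medians between −3.78 and −2.02 for 10 against 4 days and between 1.24 and 3.55 for 31 against 10 days. In the latter, 1 member changed direction, to −5.05, without rat 3 of the hNSCs group at 31 days. For 31 against 4 days the medians ran from −1.65 to 0.96, and up to 5 members changed direction.

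Other genes of the same cells were taken from a list of 68 further platelet and megakaryocyte genes, of which 66 were tested in plasma. Of these, 0 of 66 were called by edgeR in each of the 8 comparisons, and the unadjusted p was under 0.05 for 1 of them for hNSCs against control at 4 days, where it was for 3.94% of all genes, and for up to 20 for control 31 d against healthy, where it was for 4.75%. Their median log2 fold changes ranged from −1.38 for control 31 d against healthy to 0.99 for hNSCs against control at 31 days and for control 10 d against 4 d. The healthy rats were uneven for these genes too. In ascending order, the listed receptors and surface proteins summed to 1001, 1158, and 9148 CPM, and the signaling genes to 3182, 3333, and 16134 CPM. These further genes were not tested with single rats left out. The 3 most abundant were Clec1b, the CLEC-2 receptor for podoplanin, at a mean FPKM of 372, Fcer1g, the Fc receptor γ chain that signals for Gp6, at 174, and Myl9, a myosin light chain of platelets, at 169.

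Which other genes followed the members from rat to rat was examined next. Over the 21 rats, 315 of 14719 genes, or 2.14%, rose with Pf4 and 16 fell (permutation test of Pearson r, two-sided, adjusted p under 0.05 over all genes). Of the 66 further platelet genes, 31 rose with Pf4. They comprised 10 of 19 receptors and surface proteins, such as Clec1b (r = 0.98) and Gp1ba (0.92). They also comprised 11 of 19 signaling genes, such as Myl9 (0.95) and the cyclooxygenase Ptgs1 (0.91), 4 of 12 granule genes, such as F13a1 (0.94) and Thbs1 (0.84), and 6 of 16 genes of transcription and platelet formation, such as Nfe2 (0.73). Vwf (0.37), F2r (0.22), and Gata1 (0.28) did not pass.

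Genes of other cells were also compared with Pf4. None passed among 13 red cell genes, 5 T cell genes, 5 B cell genes, 8 neutrophil genes, 6 monocyte and macrophage genes, 7 liver genes, 6 endothelial genes, 4 smooth muscle genes, and 2 astrocyte genes. The exceptions were P2ry12 among 5 microglial genes, an ADP receptor that platelets share with microglia and that is also on the platelet list, and Nrgn among 2 neuronal genes. Hemoglobin genes took 0.873% to 27.6% of annotated counts. This share had r = −0.10 and rho = −0.12 with Pf4 (adjusted permutation p = 0.758 and 0.649 over 5 technical measures). With group means removed its r was −0.37, which was not tested.

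**Figure D3:**
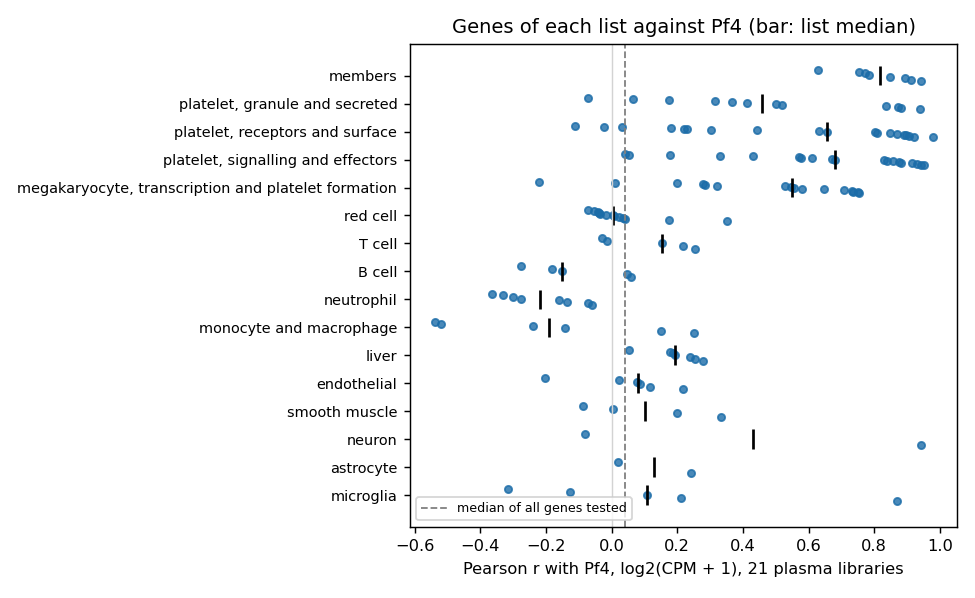
Pearson r with Pf4 over the 21 plasma libraries for every tested gene of each list, 1 point per gene, with a bar at the median of the list and a dashed line at the median of all genes, 0.04. The members and the 4 lists of further platelet and megakaryocyte genes reach far to the right, while the lists of red cells, leukocytes, liver, and vessels have medians between −0.22 (neutrophil) and 0.19 (liver).

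Of the other technical measures, library depth, the share of annotated counts, and the number of genes detected had r between −0.16 and 0.21 and rho between −0.24 and 0.20 with Pf4 (adjusted permutation p of r = 0.758 for each). With group means removed their r was 0.15, 0.15, and 0.38, in the same order, and these values were not tested. The TMM scaling factor had r = −0.48 and rho = −0.46 (adjusted permutation p = 0.144 and 0.195), and r = −0.69 with group means removed. Its part in the result was not tested. On log2(FPKM + 1), which does not use this factor, the median r over the 36 member pairs was 0.72. FPKM is also a share of its library, so this value does not test the part of composition.

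The 10 genes outside the list whose profile was most like the mean standardised profile of the members were Clec1b (r = 0.97), F13a1 (0.96), B2m (0.96), Tsc22d1 (0.95), Pdlim1 (0.95), Nrgn (0.95), Tesc (0.95), Mgrn1 (0.94), Rgs18 (0.94), and Npy (0.94), over 21 libraries. Of these, 4 of 10 are on the further platelet list, which holds 0.449% of all non-member genes. The measure is a description with no test.

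Nrgn encodes neurogranin, a calmodulin-binding protein known from dendrites and also present in platelets. It was at a mean FPKM of 186 ± 201 (n = 21, rank 141), above every member but Pf4. Nrgn followed Pf4 with r = 0.94 and rho = 0.87 (permutation test, p = 1e-05 for both, the smallest that 100000 permutations can give, adjusted p = 0.00146 and 0.00283 over all genes). With group means removed r was 0.96, without the 2 rats farthest from the median of Pf4 it was 0.91, and in the 17 rats below the gap it was 0.83. The 4 rats highest in Pf4 had 4739, 3859, 2209, and 3052 CPM of Nrgn, in descending order of Pf4, and no other rat exceeded 1536 CPM.

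The miRNA libraries of the same plasma gave a separate readout, with 410006 to 1872535 UMI counts of known miRNAs. Of 307 known miRNAs, 31, or 10.1%, rose with Pf4 and 65, or 21.2%, fell as Pf4 rose, each value being a share of its library, and the median r was −0.23. miR-191a-5p rose with Pf4, with r = 0.77 and rho = 0.74 (permutation test, adjusted p = 0.000472 and 0.00339). Both arms of miR-126a fell, miR-126a-3p with r = −0.72 and rho = −0.75 (permutation test, adjusted p = 0.00255 and 0.00230) and miR-126a-5p with r = −0.73 and rho = −0.73 (adjusted p = 0.00226 and 0.00339).

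Healthy rat 2 showed the same opposition. In CPM of known miRNAs, miR-191a-5p in healthy rat 2 was at 31006 CPM, the highest of all rats, and miR-126a-3p at 8865 CPM, the lowest. The other healthy rats had 17350 and 13639 CPM of miR-191a-5p and 42010 and 60507 CPM of miR-126a-3p. With group means removed r was 0.82 for miR-191a-5p and −0.85 for miR-126a-3p. Without the 2 rats farthest from the median of Pf4 it was 0.74 and −0.65, and in the 17 rats below the gap it was 0.55 and −0.48.

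The other platelet miRNAs did not pass. miR-223-3p had r = 0.19 and rho = 0.11 (permutation test, adjusted p = 0.560 and 0.776), and miR-199a-3p had r = −0.45 and rho = −0.29 (adjusted p = 0.109 and 0.378). The red cell miRNAs did not pass either. miR-144-3p had r = −0.52, miR-144-5p −0.45, miR-451-5p −0.44, and miR-486 −0.19 (permutation test, adjusted p = 0.0532, 0.107, 0.112, and 0.552). Removing the group means gave these red cell miRNAs r = −0.71, −0.68, −0.65, and −0.42, in the same order. It gave −0.51 for miR-199a-3p and −0.04 for miR-223-3p, and these values were not tested.

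**Figure D4:**
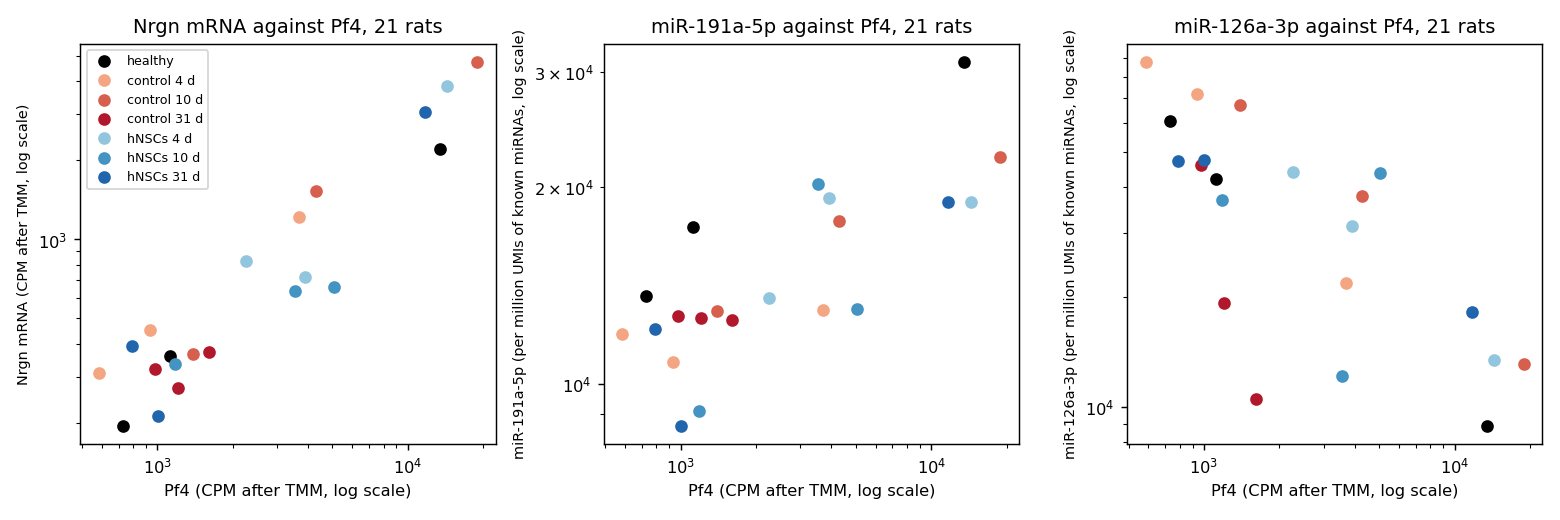
Levels of Nrgn mRNA, miR-191a-5p, and miR-126a-3p against Pf4 in the plasma-derived EVs of 21 rats, all on log axes, with 1 point per rat colored by group (mRNA in CPM on annotated genes, miRNA in CPM of known miRNAs). Nrgn and miR-191a-5p lie higher and miR-126a-3p lies lower in the 4 rats with Pf4 at 11718 CPM or more.

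In brain-derived EVs the members were close to absent. The brain mRNA libraries held 569136 to 15587216 counts on annotated genes, of which the 9 members together gave 0 to 197 counts per library. Ppbp had no count in any of the 21 brain libraries. Pf4 had 386 counts in 10 of 21 libraries, Itga2b 252 in 6, Itgb3 185 in 8, Treml1 92 in 5, Tubb1 72 in 4, and Gp6 22 in 2. Gp9 had 2 counts and Gp1bb 1 count, each in a single library. The number of members with a count followed depth over the 21 libraries (r = 0.78, rho = 0.76 with log2 annotated counts), given as a description.

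Pf4 had no count in the 3 healthy brains, 34 and 44 counts in 2 of 3 control brains at 4 days, 26 and 123 counts in 2 of 3 at 10 days, and 33 and 25 counts in 2 of 3 at 31 days. In the hNSCs group it had 10 counts in 1 brain at 4 days, none at 10 days, and 29, 26, and 36 counts at 31 days. By median depth the hNSCs brains at 10 days were the shallowest group, with 569136 to 2955945 annotated counts. The deepest of them had no Pf4 count either, and it exceeded the control brains at 10 days, which held 1500439 to 2317700. Only Pf4, Itga2b, and Itgb3 passed the filter in brain. By edgeR 0 of 3 were called at 4, 10, and 31 days in the control group against healthy, where 0.861%, 0.572%, and 0.00689% of genes were called, and 0 of 3 for hNSCs against control at each day, where 0% were called.

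At an unadjusted p under 0.05 there were 2, 2, and 1 of these 3 members against healthy and 0, 1, and 0 for hNSCs, beside 14.8%, 12.7%, and 7.14% and 7.53%, 13.4%, and 0.0896% of all genes. DESeq2 called Pf4 in the control group at 10 days and no other member to which it gave an adjusted p, and of all genes it called 6.16%, 4.44%, and 1.25% against healthy and 1.53%, 4.91%, and 0% for hNSCs. Limma on log2(FPKM + 0.1) called 2 members in the control group at 31 days, where it called 80.9% of all genes. Of the further platelet genes, 51 were tested in brain, and 4 were called higher at 4 days (Runx1, Flna, Tln1, and Tgfb1) and 3 at 10 days (Bin2, Tln1, and Tgfb1), named after their values were seen, and all are also used by other cells.

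Plasma was compared with brain in the healthy rats. All 9 members were higher in plasma by edgeR, beside 17.6% of all genes, and 45 of 64 further platelet genes were. Pf4 had 211111 counts in the 3 healthy plasma libraries and 0 in brain, at least 10468-fold more per annotated count, against a floor of 3 counts over the group. The same bound was at least 1229-fold for Tubb1, 440-fold for Itga2b, 273-fold for Ppbp, 200-fold for Gp6, 108-fold for Gp1bb, and 99.7-fold for Gp9. Itgb3 had 18 counts in brain and was 237-fold higher in plasma, and Treml1 had 8 and was 116-fold higher. Nrgn, in contrast, was 0.683-fold, with 651 CPM in plasma and 954 CPM in brain before TMM scaling. These ratios depended on single libraries, among them that of healthy rat 2, which held most of the pooled plasma counts of Pf4 and Itgb3. Without its plasma library, chosen after seeing the data, the bound was at least 3603-fold for Pf4, 491-fold for Tubb1, 110-fold for Itga2b, 76.8-fold for Gp1bb, 56.6-fold for Gp9, 56.2-fold for Ppbp, and 37.7-fold for Gp6. Itgb3 was then 38.0-fold and Treml1 50.3-fold higher in plasma, and Nrgn was 0.355-fold. Leaving out another plasma library or a brain library gave bounds between 5629-fold and 15812-fold for Pf4. Without 1 of the brain libraries, 5 of 9 members stayed past the threshold, whichever was left out.

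**Figure D5:**
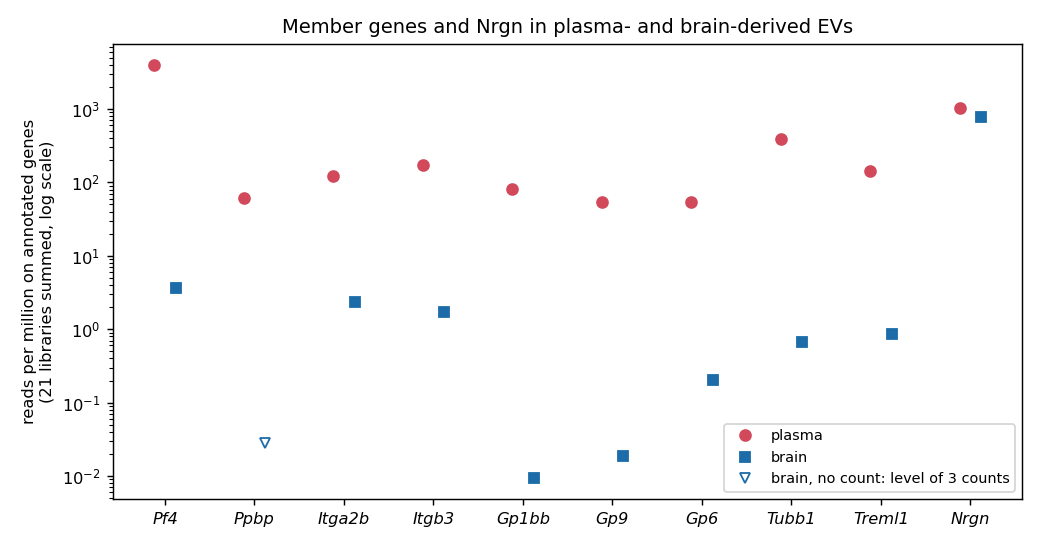
CPM on annotated genes, without TMM scaling, for each member and Nrgn, summed over the 21 plasma (circles) and the 21 brain libraries (squares), on a log axis, with an open triangle at the level of 3 counts where brain had no count. In these sums members lie 51.2-fold or more apart, while Nrgn is nearly level at 1.32-fold. Single groups differed, with 17.2-fold for Itga2b in the control group at 31 days. Nrgn ran from 0.383-fold in that group to 6.15-fold in the hNSCs group at 4 days.

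The levels in both tissues of one rat could be compared for 3 members. Over 21 rats, r between brain and plasma was 0.07 for Pf4 (rho = 0.12), −0.07 for Itga2b (rho = −0.14), and 0.10 for Itgb3 (rho = 0.04), with an adjusted permutation p of 0.998 for each over the 12885 genes tested. The brain values rest on 6 to 10 libraries with a count, so a weak relation was not detectable at this depth. The other 6 members did not pass the filter in brain.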

How the data were processed

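EV RNA of plasma and ipsilateral brain from 21 rats was analyzed in 84 libraries, 42 of mRNA and 42 of miRNA. Groups were taken from the sample labels, whose extraction text names serum where all other fields name plasma. For mRNA, the authors built SMARTer stranded libraries, aligned reads with Bowtie2 to Rnor_6.0 and deposited whole-number counts per gene. The counting tool, its strand setting, and the tool versions were not given in the sources used here. The deposited FPKM values were calculated by the authors with StringTie. For miRNA, the authors deposited UMI counts (QIAseq libraries), and their TPM values were not used.

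Tests on annotated genes used edgeR (version 4.0.16, R 4.3.3, TMM, filterByExpr, quasi-likelihood tests in 1 model of 7 groups per tissue), with Benjamini-Hochberg adjustment over all genes. The comparison of tissues used the healthy rats. The alternatives were DESeq2 1.42.0, limma 3.58.1 on log2(FPKM + 1) or log2(FPKM + 0.1), RLE factors, no composition factors, no filter, unannotated genes kept, hemoglobin genes left out, only the groups compared, the replicate block, and each library left out in turn. Correlations used log2(CPM + 1) and two-sided tests of 100000 permutations (Python 3.11.15, scipy 1.17.1), and miRNAs with a mean of at least 5 CPM were tested. The scripts were tested on simulated data.

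The members and lists were chosen with earlier results of these data known. All members are named, with the 3 most abundant further platelet genes, examples of those that followed Pf4, and the 10 genes most like the members. In each sample depth sets precision, and plasma libraries were deeper on annotated genes (median 20833331 counts) than brain libraries (median 3746015). One listed gene, Cavin2, was not matched to a row.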

Additional observations from a re-analysis of the deposited data

How the results depend on the processing

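No member was called in plasma under any alternative for control 10 d against healthy, for hNSCs against control at 4 and 10 days, or between the control days. DESeq2 called 1 member at 4 days and 1 at 31 days against healthy (Itgb3), 1 in the interaction of 31 with 10 days (Treml1), and 1 in brain at 10 days (Pf4), beside 6.47%, 4.70%, 14.4%, and 4.44% of all genes with an adjusted p. In brain at 10 days it gave 2 of 3 members no p. Limma on log2(FPKM + 0.1) called 2 members in brain at 31 days, where it called 11741 genes in all. Leaving out 1 library gave 0 to 1 calls (Gp1bb) for hNSCs against control at 31 days and for the interaction of 31 with 4 days, and 5 to 9 members higher in plasma than in brain. DESeq2 called 3 there, beside 24.9% of all genes, and gave the other 6 no p. The median r of Pf4 with the members was 0.65 below the gap in Pf4.

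For Pf4, the log2 fold change without 1 library ranged from −2.75 to 0.91, from −0.85 to 3.14, and from −2.53 to 0.45 against healthy at 4, 10, and 31 days, and from −1.83 to 0.20 and from −0.50 to 2.33 for hNSCs at 10 and 31 days. The range was −4.07 to 0.25 for Itgb3 at 4 days and −8.11 to 2.79 for Gp1bb with hNSCs at 31 days, which limma gave as −1.07 and −2.96 with pseudocounts of 1 and 0.1. The cause was not tested, except that these libraries hold the extreme values given above.

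Rats with the same replicate number in different groups were different animals, and in plasma their deviations from the group means correlated from −0.33 to 0.25. With the replicate block 0 members were called in every plasma comparison, and the median log2 fold change at 4 days against healthy was −2.24 in place of −1.56. In the comparison of tissues, where the number marks one rat, the replicate block left 9 of 9 members higher in plasma. In brain, depth limits what can be said of members with a few counts.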
